A study of Mus musculus with 8 samples.

Results

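The regions described here were stretches of open chromatin that a peak covered in every library and that lay at the end of a protein-coding gene. Peaks of all 8 libraries were merged wherever they shared 1 bp, which gave 52251 regions, of which 8856 were covered in all 8 libraries. Of these, 6033 overlapped a window of 1000 bp either side of an annotated gene end in mm10, and these 6033 are called the members. They were 11.5% of all regions, 68.1% of the regions covered in every library and 44.7% of the 13507 gene-end regions covered in at least 1 library. The members were chosen by their presence in all 8 lists and by their distance to a gene end, so both are descriptions and carry no test.

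The data were ATAC-seq peak lists of mouse hippocampal microglia at 3 weeks after birth, from 4 control (Ctrl) and 4 FGR libraries. The series title speaks of intrauterine growth restriction, and FGR is the submitters' label. All 8 libraries carried the genotype Tmem119-tdTomato+/-, a reporter named for Tmem119, a gene that marks microglia, and were made with the same Vazyme Hyperactive kit (TD711). The labels name no separate animals or litters and do not say how growth restriction was produced, and the age stands as a tag of its own only for replicates 1 and 2 and in the title for all. P-values therefore measure the spread between these libraries.

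ATAC-seq cuts DNA with a transposase that enters where nucleosomes are absent or loose, so a peak marks accessible DNA. Gene starts are among the most widely shared open sites of the genome. In mammals many of them lie in CpG islands, stretches rich in the dinucleotide CG that are mostly unmethylated, and housekeeping genes typically have such a start. General promoter factors such as NF-Y, which binds the CCAAT box, the SP and KLF factors, NRF1 and ETS factors are known to bind there, whereas cell-type identity depends largely on distal enhancers.

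The following 8 stretches show the DNA under members at which the results turn. Each is the 150 bases upstream of the most upstream RefSeq start inside the member, 5′ to 3′ on the gene's strand in GRCm38.p6. Capitals mark the CCAAT box (CCAAT, or ATTGG on the other strand) and the SP and KLF motif (GGGCGGG, or CCCGCCC). Cx3cr1, the fractalkine receptor of microglia, is at chr9:120068297-120068446 (minus strand) and Irf8, a transcription factor of the myeloid lineage, at chr8:120736208-120736357 (plus strand). Hsd17b12, an enzyme of fatty acid elongation, is at chr2:94157910-94158059 (minus strand). Osbp, an oxysterol-binding protein, is at chr19:11965694-11965843 (plus strand). Map3k3, a kinase of the MAP kinase cascades, is at chr11:106084437-106084586 (plus strand), and Rab40c, a small GTPase, is at chr17:25919715-25919864 (minus strand). These last 4 belonged to the strongest members in every library. Mitf, a transcription factor of lysosomal and pigment genes, at chr6:97806908-97807057 (plus strand), and Pip5k1c, a kinase that makes the lipid PIP2, at chr10:81292813-81292962 (plus strand), were among the members with the smallest p between the groups, although none passed the test.
Cx3cr1: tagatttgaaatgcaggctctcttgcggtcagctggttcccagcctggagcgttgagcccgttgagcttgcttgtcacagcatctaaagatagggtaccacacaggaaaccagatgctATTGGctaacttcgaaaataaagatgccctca
Irf8: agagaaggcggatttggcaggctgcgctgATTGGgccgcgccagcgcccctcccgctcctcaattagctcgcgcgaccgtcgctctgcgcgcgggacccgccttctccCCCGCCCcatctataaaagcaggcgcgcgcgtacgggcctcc
Hsd17b12: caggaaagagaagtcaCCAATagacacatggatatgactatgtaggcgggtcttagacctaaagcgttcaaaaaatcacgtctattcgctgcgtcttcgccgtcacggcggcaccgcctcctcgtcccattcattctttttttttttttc
Osbp: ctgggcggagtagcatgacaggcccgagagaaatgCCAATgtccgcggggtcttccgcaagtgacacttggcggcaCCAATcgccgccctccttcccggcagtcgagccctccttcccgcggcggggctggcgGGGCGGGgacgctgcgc
Map3k3: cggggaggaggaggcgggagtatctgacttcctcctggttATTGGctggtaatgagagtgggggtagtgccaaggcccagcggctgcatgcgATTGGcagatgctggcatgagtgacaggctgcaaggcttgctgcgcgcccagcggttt
Rab40c: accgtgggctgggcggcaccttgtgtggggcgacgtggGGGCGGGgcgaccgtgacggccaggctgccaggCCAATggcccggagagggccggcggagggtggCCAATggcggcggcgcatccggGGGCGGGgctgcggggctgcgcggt
Mitf: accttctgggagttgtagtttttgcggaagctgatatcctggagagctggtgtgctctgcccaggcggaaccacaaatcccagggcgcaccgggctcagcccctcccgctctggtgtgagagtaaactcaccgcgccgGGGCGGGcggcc
Pip5k1c: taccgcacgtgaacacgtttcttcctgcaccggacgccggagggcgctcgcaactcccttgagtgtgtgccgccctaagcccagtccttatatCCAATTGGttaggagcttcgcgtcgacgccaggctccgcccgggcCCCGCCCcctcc
A CCAAT box stood in 7 of these 8 stretches, and Osbp, Map3k3, Rab40c and Pip5k1c held 2. Measured at its middle base, the box lay 30 bases upstream of the start at Cx3cr1 and 119 at Irf8. It lay 132 bases upstream at Hsd17b12, 113 and 72 at Osbp, 108 and 56 at Map3k3, and 77 and 45 at Rab40c. At Pip5k1c the 2 boxes overlapped on opposite strands, 55 and 52 bases upstream. Mitf held an SP and KLF match and no CCAAT box in this stretch. G and C made up 46.7% of the stretch at Hsd17b12 and 48.7% at Cx3cr1, against 79.3% at Rab40c.

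Members were short, with a median length of 993 bp, quartiles of 826 and 1203 bp and a range of 428 to 2628 bp, and together covered 6.28 Mb. Of the 6033, 5460 contained the gene end itself. They served 7071 of 21883 protein-coding genes, or 32.3% of them, a share that the rule itself fixes. 4804 members touched 1 gene, 1201 touched 2 and 28 touched 3. By contrast, 218 genes had more than 1 member and none had more than 3. The longest were at Atp13a3, a P5-type transport ATPase (2628 bp), Arid1b, a subunit of the BAF chromatin remodeller (2587 bp), LOC108167694 (2549 bp), the shared start of Atp6v1a and Naa50 (2509 bp) and Aamdc (2421 bp). Their median within-list percentile of peak strength ran from 52.0 at Arid1b to 86.2 at Aamdc. Strength is the −log10 q value of the highest peak in the member, and the within-list percentile is its rank among all peaks of the same library, where 100 is the strongest.

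Where strand was known, nearly all members were at gene starts rather than at 3′ ends. Strand was known for 17491 genes, and 5069 members could be assigned by it. For 929 members (15.4%) no gene's strand was known, and 35 touched a 3′ end and a gene of unknown strand. Of the 5069, 98.5% lay at a start: among ends of known strand, 4702 touched only starts and 290 both a start and a 3′ end. Only 77 touched a 3′ end alone, and 3 of those 77 had a start of any other gene type within 1000 bp. A start lay inside 4780 members. In 619 of them (12.9%) starts of both strands were present, and in 553 of the 619 (89.3%) the nearest such pair pointed away from each other, with a median gap of 151 bp among those 553. Members with starts on both strands had a median length of 1083 bp and a median percentile of 83.5, against 989 bp and 80.2 where 1 strand had a start. The strongest of the 2-sided members joined Fam72a and Srgap2, whose starts were 542 bp apart, and Drc3 and Tom1l2, 475 bp apart. Srgap2 encodes a GTPase-activating protein of cell migration. The member shared by Derl2, a protein of endoplasmic reticulum degradation, and Mis12, a kinetochore protein, was also in this group, but there the starts overlapped and did not point apart (gap of -230 bp). So were those of Etfdh with 4930579G24Rik, 312 bp apart, and of Tacc3 with Tmem129, 151 bp apart. Over these 5, the lowest percentile in any library lay between 98.8 and 99.6.

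Members were spread over all autosomes and thin on the sex chromosomes. On autosomes the share of protein-coding genes with a member was lowest on chromosome 14, at 26.5%, and highest on chromosome 8, with 417 of 1042 genes. It was 12.3% on chromosome X, with 119 of 966 genes, and 0 of 256 genes on chromosome Y. The labels used here do not give the animals' sex.

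Counts by gene list ran from every gene to none, beside the 32.3% of all genes, from which nothing is read because the rule fixed it. All 8 chaperonin subunit genes had a member, with Tcp1 at a median percentile of 99.5, Cct3 at 97.7 and Cct7 at 93.4; the chaperonin folds actin and tubulin. A member also stood at 27 of 35 aminoacyl-tRNA synthetase genes, which charge tRNAs, and 65 of 85 cytosolic ribosomal protein genes, among them Rpl15 at 98.6, Rpl27 at 98.6 and Rps21 at 96.0. Counts were 35 of 47 for spliceosome proteins, 14 of 19 for nuclear pore proteins, 22 of 30 for Mediator subunits and 9 of 12 for minichromosome maintenance and origin recognition genes. They were 34 of 52 for translation initiation factors, 24 of 39 for proteasome subunits and 22 of 31 for ubiquitin-conjugating enzymes. In energy metabolism, members stood at 52 of 83 oxidative phosphorylation genes, led by Atp5g1 at 99.3 and Sdhc at 98.6, and 48 of 78 mitochondrial ribosomal protein genes, led by Mrpl18 at 99.5. Mrpl18 and Tcp1 shared 1 member. Of the 13 RNA polymerase II subunit genes, 5 had a member.

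At the other end, 1 of 1110 olfactory receptor genes (Olfr111) and 1 of 353 vomeronasal receptor genes (Vmn1r4, in a member it shared with Nt5c3) had a member. No member stood at any of 105 keratin, 42 beta-defensin or 39 Hox genes. Potassium channels had 5 of 92, cytochrome P450 enzymes 7 of 93 and protocadherins 1 of 68. Zinc finger genes of the Zfp series, at 162 of 397, and replication-dependent histone genes, at 26 of 65, lay between. The median percentile of strength was 81.8 for cytosolic ribosomal proteins, 77.0 for oxidative phosphorylation and 74.8 for the 17 of 25 immediate early genes with a member. No list was tested against the rest, since the lists were chosen with results of these data known.

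**Figure D1:**
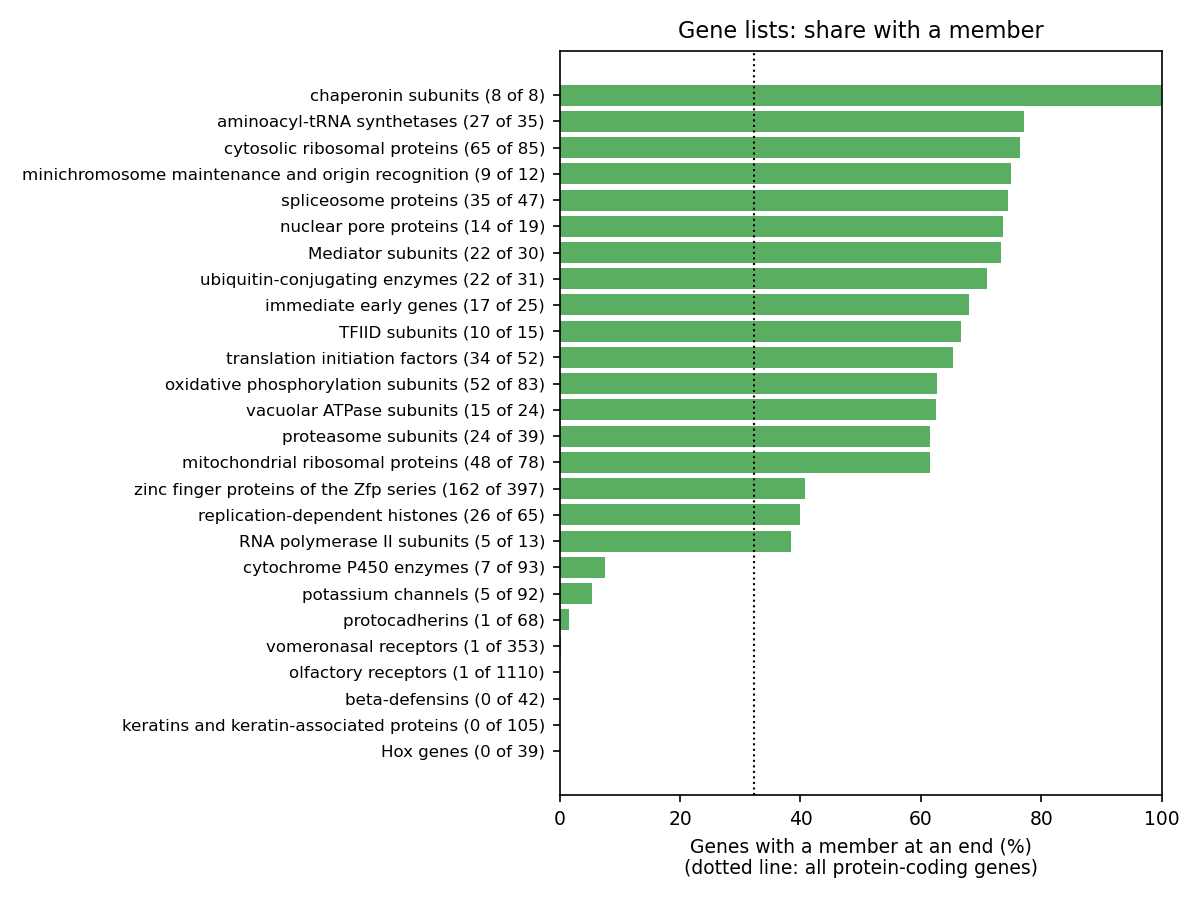
Share of each gene list with a member (horizontal axis, percent of the genes matched), with the number of genes with a member and the number matched beside each name. The dotted line is the 32.3% of all 21883 protein-coding genes; receptor, keratin, defensin and Hox families lie near 0 and the chaperonin genes at 100%.

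The labelled cell type was checked against marker genes. Of 12 microglial marker genes, 4 had a member, among them Tmem119, Cx3cr1 and Sall1, where 32.3% of all genes had one. A gene-end peak in at least 1 library was found at 10 of the 12. The share of all genes with such a peak is not given here, so counts of it are descriptions only. Of 51 marker genes of 8 other cell types or lineages, 15 had such a peak, 3 each for neurons, astrocytes, endothelial and mural cells, and lymphocytes, and 2 had a member. The 2 were Aldoc, an astrocyte enzyme, and Kdr, an endothelial receptor, whose member lay at its 3′ end. None of the 10 neuronal, 8 oligodendrocyte-lineage, 4 border macrophage, 5 monocyte and neutrophil, 6 lymphocyte or 4 erythroid markers had one. In bulk libraries a change in the share of a cell type and a change in openness per cell cannot be told apart.

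Tmem119, a membrane protein of microglia for which the reporter is named, had within-list percentiles of 65.4, 55.7, 83.5 and 59.5 in Ctrl 1 to 4. In FGR 1 to 4 it had 82.1, 85.1, 89.8 and 89.9. At the Cx3cr1 start shown above the values were 34.1, 59.2, 71.2 and 73.9 in Ctrl and 80.8, 88.3, 86.0 and 89.4 in FGR. In both genes the FGR libraries lay higher, but with overlap at Tmem119, where Ctrl 3 stood above FGR 1. Within-list percentiles move with the number of peaks in a list, so groups are compared below on ranks among the same regions. Sall1, a transcription factor of microglial identity, ranged from 70.4 in Ctrl 2 to 88.3 in FGR 2, and Irf8 from 61.1 in Ctrl 2 to 83.7 in FGR 2. These 4 were mid-strength members, with medians over libraries of 73.4 (Irf8) to 82.8 (Tmem119). Spi1, Csf1r, P2ry12, Trem2, Aif1, Mef2c and Fcrls, which the same rule named, had no member.

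The strongest members were common to all libraries. At the member shared by Kctd9 and Cdca2, whose strand was not known here, the lowest within-list percentile in any library was 99.7, and the deposited fold over background ran from 7.41 in Ctrl 2 to 10.5 in FGR 2. Next came Hsd17b12 (lowest percentile 99.7, fold 8.14 to 10.8) and Osbp (99.6, fold 6.82 to 8.30). Map3k3 (99.6, fold 6.38 to 9.91) and Rab40c (99.6, fold 6.09 to 8.15) followed. The starts of Fam72a with Srgap2, of Pcx, pyruvate carboxylase, and of Drc3 with Tom1l2 were also among the 10 strongest, as was an end of Usp22, a histone deubiquitinase, whose strand was not known here. The remaining one, at Lars2, the mitochondrial leucyl-tRNA synthetase, was at a 3′ end. It spanned 587 bp (chr9:123461700-123462286), lay 389 bp from the gene's end and had a fold of 9.28 in FGR 4 and 10.9 to 12.1 elsewhere. The sources used here do not say whether high-signal regions were masked before deposit.

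The weakest members were at Golga4, a Golgi tethering protein, with a median percentile of 8.32, and at the shared start of Zcchc3 and 6820408C15Rik, with 16.3. Tsen54, a tRNA-splicing subunit, had 19.5, as did Enkd1 with 4933405L10Rik, and Rcan3, a calcineurin regulator, had 19.7. Rcan3 varied most among these, from 1.38 in Ctrl 2 to 68.4 in FGR 2. Over all members, 3373 were at or above the 50th percentile in every library and 522 at or above the 90th. At the edges of the rule, 46 members lay 901 to 1000 bp from a gene end, with a median percentile of 74.4. A further 31 regions called in all libraries lay just outside, at 1001 to 1100 bp, with a median of 71.9. Another 1295 gene-end regions were called in 7 of 8 libraries, with a median of 52.6 against 79.5 for the members. Ctrl 2, the shortest list, missed 977 of these 1295.

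Starts in members were richer in CpG than other starts, given here as a description. Of 21237 starts of protein-coding genes in the RefSeq promoter table, each 250 bases before to 50 after the start, 6102 lay in members. Their median CpG observed-to-expected ratio was 0.839, against 0.723 for 4317 starts in other called regions and 0.247 for 10818 starts in no called region. A ratio of at least 0.6 was found at 88.3%, 67.9% and 16.6% of them. Read the other way, 0.787% of starts with a ratio under 0.2 lay in a member, 19.1% of those from 0.4 to 0.6 and 64.0% of those above 1.0. The GC content was 63.3%, 61% and 49.7% for the same 3 groups.

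Several exact motifs, searched on both strands, went with this. The SP and KLF letters GGGCGGG stood in 56.9% of members' starts and 33.9% of all starts. The ETS letters CCGGAAGT stood in 10.5% and 5.15%, YY1 (AAGATGGCG) in 4.33% and 1.83%, and NRF1 (the half-site GCGCA followed directly by its reverse complement TGCGC) in 2.77% and 1.33%. For CREB and ATF (TGACGTCA) the shares were 3.98% and 2.24%, for the E-box (CACGTG) 11.7% and 7.84%, and for Ronin and ZNF143 (ACTACAA) 5.49% and 3.60%. TATAAA was rarer in members, at 4.72% against 12.6%, as was the AP-1 motif TGANTCA, at 3.16% against 6.99%. PU.1, a factor that microglia need, had its letters GAGGAAGT in 3.08% of members' starts and 3.13% of all. None of these motifs contains another, although the PU.1 and ETS letters share GGAAGT. Composition was not matched between these starts, and its part in the shares was not tested.

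Of the 11 motifs searched, the CCAAT box had the share that differed most, in percentage points, between weak and strong members. When members were divided into 5 equal groups by median percentile, 24.4% of starts in the weakest quintile held a CCAAT box and 31.6%, 39.0%, 48.1% and 61.3% in the following ones. All starts held it at 38.2%, so the weakest members lay below that share and the strongest above it. At least 2 boxes stood at 6.39% of starts in the weakest quintile and 38.5% in the strongest. A box 40 to 120 bases upstream, where NF-Y is known to bind, stood at 10.6% and 40.8%. Boxes in that window were 39.6% of all boxes in the weakest quintile and 42.2% in the strongest, so the number of boxes differed more than their placement. The CpG ratio did not follow strength in this way, at 0.839 in the weakest and 0.827 in the strongest quintile. Ronin and ZNF143 letters stood at 3.74% in the weakest and 7.11% in the strongest quintile, TATAAA at 6.12% and 3.59%, and NRF1 was lowest in the strongest quintile (1.03%, against 3.01% in the weakest). Of the 10 strongest members, 7 had a start in the table and all 7 held a CCAAT box; of the 100 strongest, 89 had one and 76 of them (85.4%) held the box. These are counts over regions of the same libraries, which are not replicates, and no test was made.

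**Figure D2:**
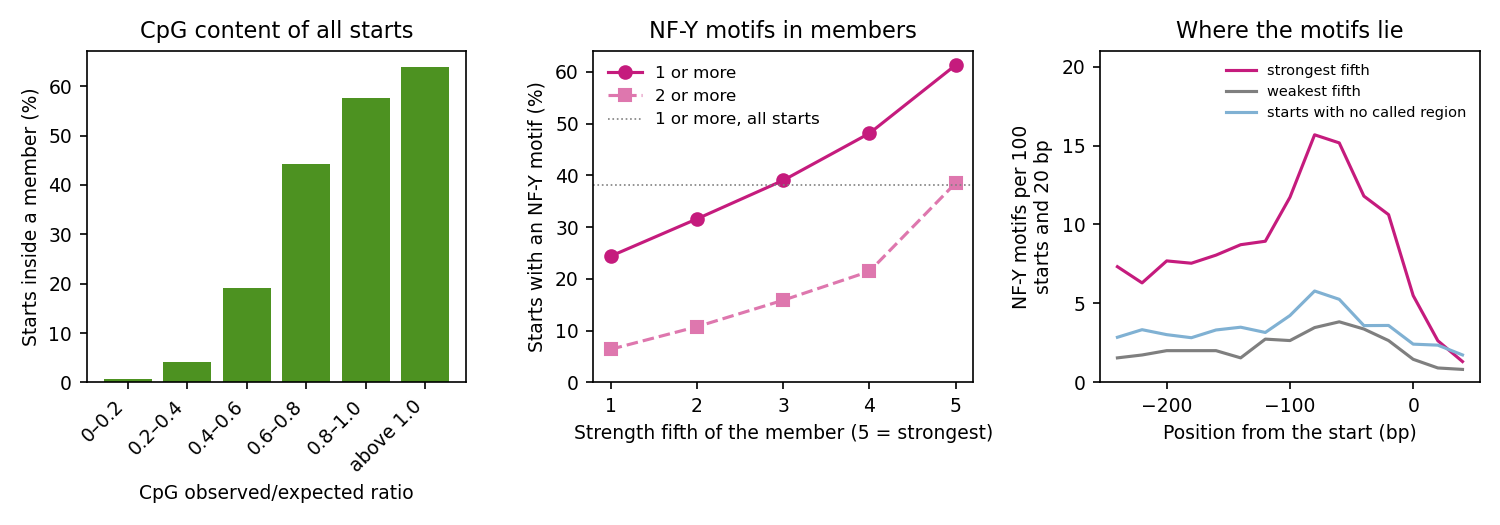
Left, percent of all starts that lay in a member, by CpG observed-to-expected ratio, rising from 0.787% to 64.0%. Middle, percent of members' starts with at least 1 (solid) or 2 (dashed) NF-Y motifs, by strength quintile, rising from 24.4% to 61.3% and from 6.39% to 38.5%, with the 38.2% of all starts dotted. Right, NF-Y motifs per 100 starts in bins of 20 bp around the start, highest between 100 and 40 bases upstream in the strongest quintile.

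Several libraries stood apart before any group was compared. The strongest summit, the peak's highest point, lay a median of 46 to 50 bp upstream of the start in 6 libraries, over the 3715 members with 1 start inside. In Ctrl 1 and Ctrl 2 it lay 18 and 19 bp downstream, with 1 mode on each side of the start. Within 100 bp of the start were 36.0% and 34.9% of summits in Ctrl 1 and 2 against 56.6% to 58.8% in the other 6. Peaks at members had median widths of 587 to 728 bp, while other peaks had medians of 416 and 482 bp in Ctrl 2 and 1 and 302 to 318 bp elsewhere. Ctrl 1 and 2 thus have another peak shape than the rest, and the main group comparisons below are also given without them. Those runs leave out only their values, since the regions compared still had to be called in Ctrl 1 and 2.

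**Figure D3:**
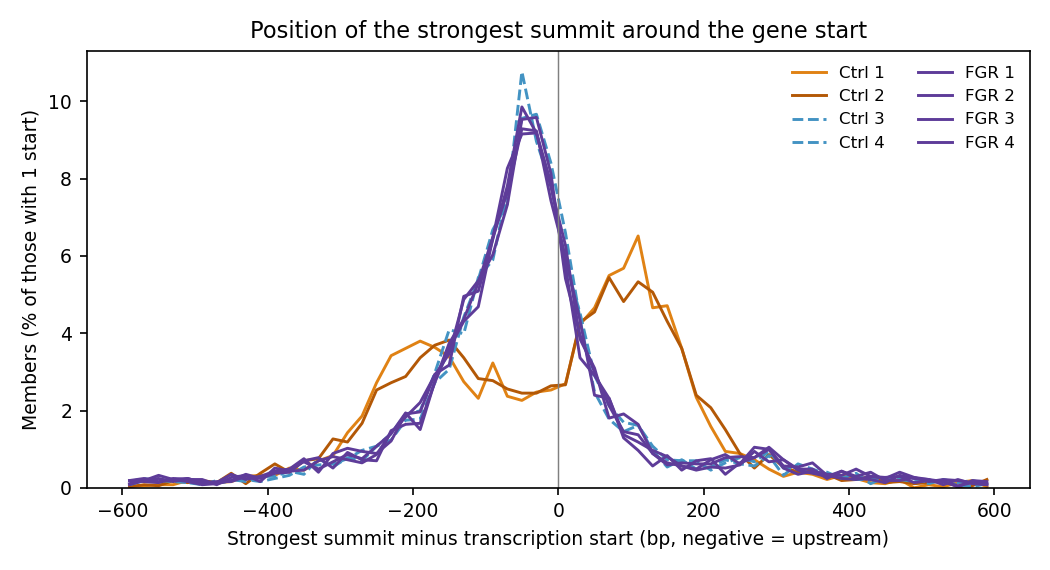
Percent of the 3715 members with 1 start (vertical axis) whose strongest summit lay at each distance from it (horizontal axis, bp, bins of 20 bp), 1 line per library. Ctrl 3, Ctrl 4 and the 4 FGR libraries share a single mode about 50 bp upstream, and Ctrl 1 and Ctrl 2 have 1 mode on each side of the start.

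Some libraries also shared summits more often than others did. Summits fell on the identical base at 9.20% of members for FGR 1 and FGR 3 and at 7.44% for FGR 2 and FGR 4. The other pairs among Ctrl 3, Ctrl 4 and the FGR libraries had 2.04% to 2.65%. Ctrl 1 and Ctrl 3 had 1.16% of summits exactly 200 bp apart, and Ctrl 2 and Ctrl 4 0.928%, against 0.398% to 0.779% for the other pairs of Ctrl 1 or 2 with the remaining 6. These Ctrl values stood less far from the other pairs than those of FGR did. Replicates 1 and 3, and 2 and 4, of a group were therefore averaged and counted as 1 sample, which leaves 2 against 2.

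Depth at the members was lowest in Ctrl 2. The deposited values give the number of reads or fragments piled up at a summit, with a median of 41, 27, 44 and 52 at members in Ctrl 1 to 4 and 41, 39, 47 and 46 in FGR 1 to 4. Other peaks had medians of 22 to 30. Members took 23.8%, 28.6%, 22.1% and 25.5% of the peaks in FGR 1 to 4 and 39.2%, 58.0%, 29.0% and 26.9% in Ctrl 1 to 4. The number of peaks at members was nearly constant, at 6300 to 6705, so the share moved mainly with list length. Members with more than 1 peak were 4.23% and 4.26% in Ctrl 1 and 2 and 7.04% to 10.7% in the others.

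Within every library, members were stronger than the distal regions called in all 8 libraries, which lay inside genes away from their ends (1674) or between genes (1133). The median within-list percentile exceeded that of distal regions by 10.7, 15.1, 4.18 and 7.04 points in Ctrl 1 to 4. In FGR 1 to 4 it did so by 2.11, 1.80, 0.925 and 0.674 points. The mean difference was 5.32 ± 5.24 points (SD, n = 8 libraries), above 0 in 8 of 8 (exact two-sided sign-flip permutation test, p = 0.00781). The 8 libraries hold pairs that share summits, and with pairs averaged the p was 0.125, the smallest that 4 pairs can give. Without Ctrl 1 and 2 the difference averaged 2.79 points (exact p = 0.0312), and ranked by the deposited fold it averaged 8.16 points (exact p = 0.00781). With only peaks at a −log10 q of at least 5 it averaged 4.21 points (exact sign-flip p = 0.0156). If all 8 libraries had been above 0 there, the p would have been 0.00781, so not every library was. In the main setting the difference was larger in every Ctrl than in every FGR library, which was not tested apart. Within-list percentiles move with list length, and the lists held 10862 to 24195 peaks in Ctrl and 23327 to 29501 in FGR. The part of list length in the difference was not tested. Ctrl 1 and 2, where the difference was largest, were the libraries of the other peak shape.

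Members at starts alone were stronger than the 77 at 3′ ends alone. The difference in median percentile was 15.9, 25.6, 11.9 and 11.7 points in Ctrl 1 to 4 and 7.12, 5.15, 4.41 and 5.70 points in FGR 1 to 4. It averaged 10.9 ± 7.18 points (SD, n = 8 libraries), above 0 in 8 of 8 (exact two-sided sign-flip permutation test, p = 0.00781; pairs averaged, exact p = 0.125). Ranked by the deposited fold it averaged 22.2 points (exact p = 0.00781), and without Ctrl 1 and 2 it averaged 7.66 points (exact p = 0.0312). The 3′-end members had a median length of 803 bp against 1000 bp. After Lars2, the strongest by median percentile were those at Gm2a, the GM2 ganglioside activator (95.6), between Rilpl1 and Snrnp35 (94.8), at Fam120a (94.4) and at Papss1, which makes the sulfate donor PAPS (92.9).

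**Figure D4:**
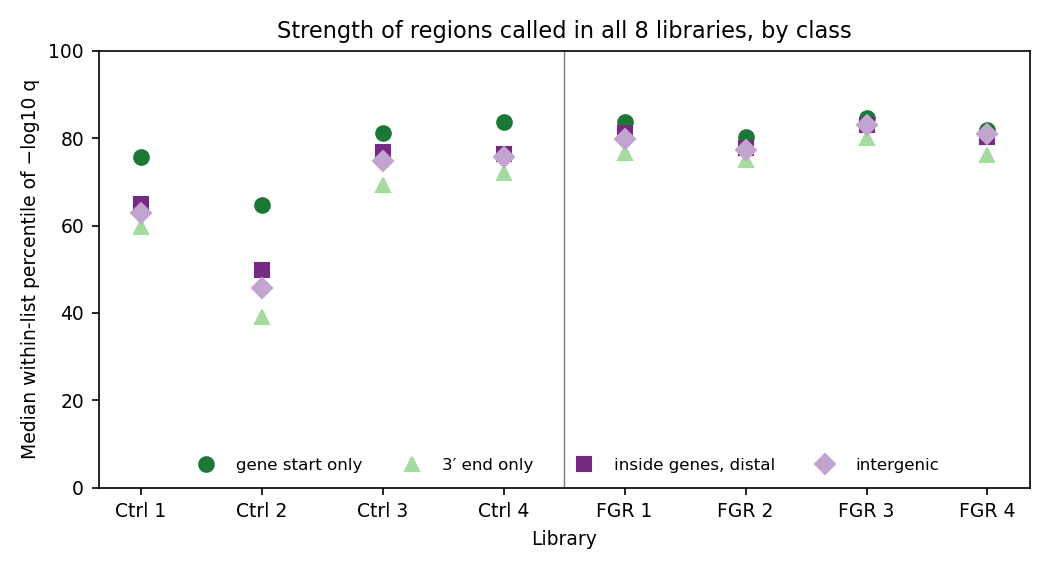
Median within-list percentile of −log10 q (vertical axis) in each library (horizontal axis) for members at starts only, members at 3′ ends only, and distal regions inside genes and between genes. Members at starts are highest in each library and those at 3′ ends lowest, with the widest gap in Ctrl 2 (64.8 against 39.1).

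Compared with distal regions, members ranked slightly lower in FGR than in Ctrl. Each region called in all 8 libraries received a rank percentile among the 8840 such regions on chromosomes, so that all libraries are ranked over the same regions. Ranks are relative: a rise of some regions is a fall of others, and members and distal regions must move in opposite directions. The mean rank percentile of the members was 53.6, 54.1, 52.0 and 53.8 in Ctrl 1 to 4 and 51.3, 51.2, 50.8 and 50.3 in FGR 1 to 4, without overlap. Averaged over pairs, Ctrl had 53.4 ± 0.772 and FGR 50.9 ± 0.204 (SD, n = 2 pairs each). The difference of -2.48 points had p = 0.0286 over the 8 libraries taken singly (exact two-sided permutation test), the smallest that 70 assignments can give. With pairs averaged the smallest possible p is 0.333, and that was the value. Without Ctrl 1 and 2 the difference was -2.01 points (exact p = 0.0667), with the ranked regions still required to be called in both. Leaving out FGR 1, 2, 3 or 4 alone gave an exact p of 0.0571, and leaving out any single Ctrl library gave 0.0286.

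The same direction appeared when each list was shortened to its 10862 strongest peaks, the length of the Ctrl 2 list. Members found in them numbered 5583, 6033, 5285 and 5561 in Ctrl 1 to 4, and 5177, 5097, 5089 and 4959 in FGR 1 to 4. The rule and the list length fix the Ctrl 2 value at all 6033, so the difference of -535 members over the 8 libraries is a description. Without Ctrl 2 it was -396 members, and without Ctrl 1 and 2 it was -343. The members counted there still had to be called in Ctrl 2, so these values are descriptions as well. Among the 1000 strongest peaks of a list, 74.1% to 77.0% lay at members in FGR and 80.1% to 83.9% in Ctrl. Among the 100 strongest peaks this direction was not kept, and the groups overlapped. There the share at members in FGR 3 and FGR 4 lay above that of every Ctrl library. FGR 1 lay below every Ctrl library, and FGR 2 lay within the Ctrl range.

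No single member passed the test between the groups. limma with a mean-variance trend on the rank percentiles of 8840 regions, with 2 pair means a group, called 0 members higher and 0 lower in FGR at an adjusted p of 0.05. It called 0.0% of all regions in each direction, and again 0 members in either direction without Ctrl 1 and 2. At an unadjusted p under 0.05 there were 191 of 6033 members higher and 289 lower, where 5.62% of all regions were higher and 4.2% lower. A count of 0 does not show that members were alike in the groups. In 187 members (3.10%) every FGR library ranked above every Ctrl library, against 5.14% of all 8840 regions, and in 282 (4.67%) every FGR library ranked below, against 4.03%. The first share was below and the second slightly above the background.

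The 187 and the 282 members differed in sequence as described, without a test. Starts in the 187 that were higher in FGR had a median CpG ratio of 0.759, and those in the 282 that were lower had 0.895, against 0.839 for all members. A CCAAT box stood at 50.5% and 36.8%, and Ronin and ZNF143 letters at 9.34% and 2.58%. NRF1 letters stood at 1.10% and 4.52%, ETS letters at 9.89% and 14.8%, and CREB and ATF letters at 2.2% and 5.48%. These shares are of 182 and 310 starts, so the lowest rest on few starts. The members higher in FGR were shorter, with a median of 868 bp against 1057 bp, and stronger, with median within-list percentiles of 84.8 and 76.7. Strength and length thus moved with the group difference, and their part in it was not tested.

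The 6 members with the smallest p, 3 in each direction, are named as not passing (limma, adjusted p = 0.446 for each). E2f3, a transcription factor of the cell cycle, had rank percentiles of 75.8, 69.5, 84.7 and 91.2 in Ctrl 1 to 4 and 95.3, 98.5, 98.0 and 97.5 in FGR 1 to 4. All FGR values lay above all Ctrl values, and the difference was 17.1 ± 3.73 points (SE). It was 9.41 points without Ctrl 1 and 2, the lowest Ctrl values, and 38.9 points when ranked by the deposited fold. Tmem241, a membrane protein, had 16.8, 9.42, 9.32 and 4.90 in Ctrl and 77.7, 72.6, 54.0 and 52.8 in FGR. At 54.2 ± 12.9 points this was the largest difference of the 6, and it was 57.2 points without Ctrl 1 and 2. Mitf, shown above, had 82.3, 82.5, 64.6 and 72.4 in Ctrl and 94.8, 93.8, 95.3 and 92.0 in FGR, a difference of 18.5 ± 4.85 points.

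The other 3 were lower in FGR in every library. Pip5k1c, shown above, had rank percentiles of 95.9, 95.6, 86.1 and 94.3 in Ctrl and 69.3, 58.2, 55.5 and 60.5 in FGR, a difference of -32.1 ± 7.37 points (SE). At the shared start of Acin1, a nuclear factor tied to splicing, and 1700123O20Rik the values were 97.4, 98.7, 95.3 and 95.6 in Ctrl. They were 80.6, 78.7, 85.6 and 88.6 in FGR, a difference of -13.4 ± 3.44 points, and of -8.33 points with replicates 3 and 4 only. Zbtb21, a zinc finger protein, had 96.4, 97.7, 75.1 and 89.1 in Ctrl and 48.8, 62.0, 46.3 and 50.2 in FGR, a difference of -37.7 ± 9.92 points. Over 14 settings all 6 kept their direction, with adjusted p-values from 0.0563 to 0.718 (limma).

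The microglial members did not pass either. Cx3cr1 differed by 27.7 ± 15 points (SE) with an adjusted p of 0.548 (limma), and Tmem119 by 22.4 ± 14.9 points with 0.624. On ranks, Cx3cr1 had 9.99, 50.9, 36.3 and 35.0 in Ctrl and 46.7, 70.2, 56.4 and 69.7 in FGR, with FGR 1 below Ctrl 2. Both differences were positive in 14 of 14 settings, between 12 and 34.3 points for Cx3cr1 and 14.2 and 32.5 for Tmem119. Irf8 had a difference of 2.22 points and Sall1 of -7.15, and both changed sign in at least 1 setting.

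Of the 20 gene lists with members compared, the members at replication-dependent histone genes, which package newly made DNA and are transcribed in S phase, stood highest in FGR. Their median rank percentile over 17 members was 47.2, 40.9, 39.5 and 37.6 in Ctrl 1 to 4 and 62.0, 59.2, 62.1 and 64.6 in FGR 1 to 4. All 4 FGR libraries were above all 4 Ctrl libraries, whereas the median over all members was 52.8 to 55.7 in Ctrl and 50.6 to 51.7 in FGR. The median difference over the 17 was 15.6 points, with 13 of 17 higher, and the median over all members was -2.10 points. It was 14.9 points without Ctrl 1 and 2 and 13.4 points with replicates 3 and 4 alone. H4c3 had the largest difference, 41.2 ± 15.5 points (SE, adjusted p = 0.446, limma), from 5.19, 41.5, 26.9 and 46.0 in Ctrl to 81.3, 54.1, 77.8 and 71.3 in FGR. The member shared by H2bc9 and H3c7 followed with 39.3 ± 14.6 points (adjusted p = 0.446), from 53.3, 3.45, 14.3 and 9.03 to 72.0, 39.4, 65 and 60.9. The lowest, H2bc18 with H3c13, had -12.5 points. None of the 17 passed, and 2 had every FGR library above every Ctrl library, where 5.14% of all regions did. Histone genes stand in clusters and resemble each other closely, so reads may map to more than 1 of them, and the sources used here do not say how such reads were treated.

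The other lists had median differences on both sides of the -2.10 points of all members, and all lay closer to it than the histone genes did. Proteasome members had a median difference of -6.46 points with 18 of 24 lower, ubiquitin-conjugating enzymes -5.58 with 15 of 22 lower, and minichromosome maintenance and origin recognition genes -9.68 with 6 of 9 lower. Cytosolic ribosomal proteins had -1.24 (37 of 66 lower), mitochondrial ribosomal proteins -1.97 (28 of 51 lower) and oxidative phosphorylation -2.70 (35 of 54 lower). Mediator members had 3.27 (13 of 23 higher), RNA polymerase II subunits 1.27 (3 of 5 higher) and spliceosome members 1.02 (21 of 39 higher). None of their members was called. With replicates 3 and 4 only, Mediator members kept a positive median of 3.05 points. Spliceosome members then had -2.52 points and RNA polymerase II subunits -0.189. Chaperonin subunits changed sign the other way, from -2.35 to 0.324, and vacuolar ATPase subunits from -1.05 to 2.14.

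**Figure D5:**
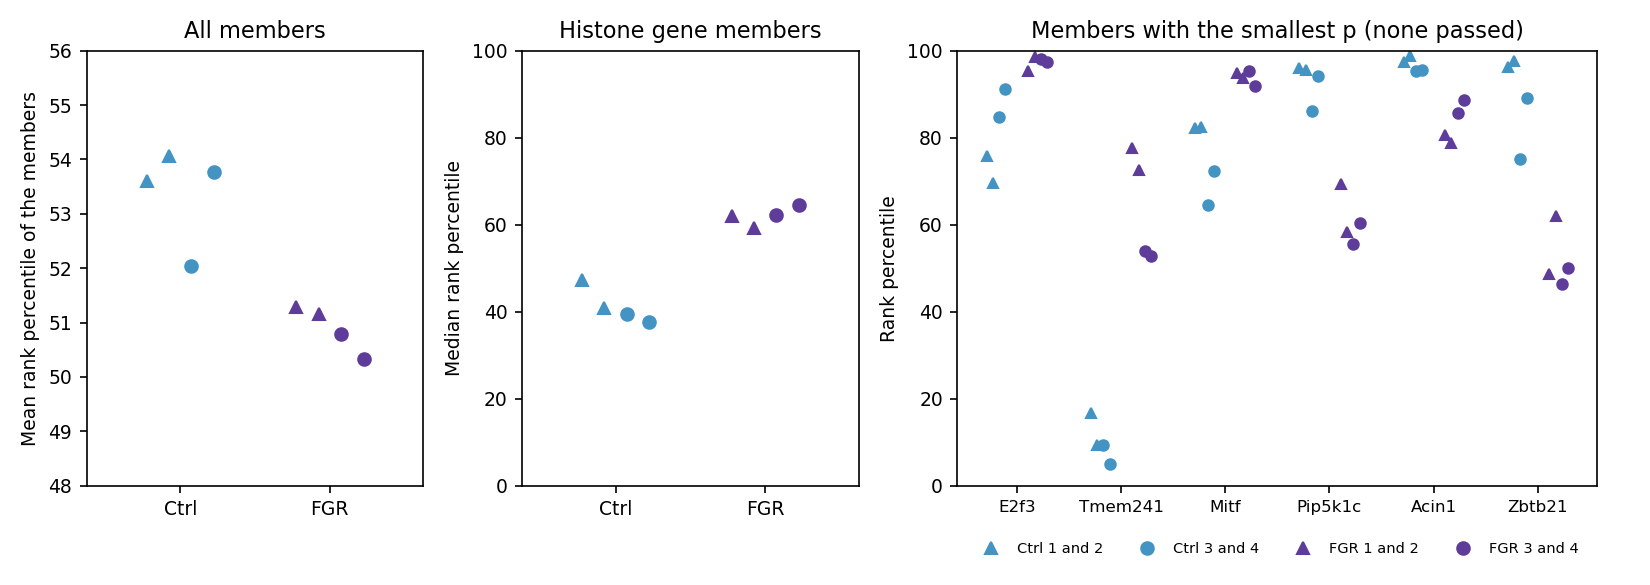
Rank percentiles among the 8840 regions called in all 8 libraries, 1 point per library (triangles, replicates 1 and 2; circles, replicates 3 and 4), for the mean over all 6033 members (left, axis from 48 to 56), the median over 17 histone gene members (middle) and the 6 members with the smallest p (right). FGR lies below Ctrl on the left (50.3 to 51.3 against 52.0 to 54.1) and above it in the middle (59.2 to 64.6 against 37.6 to 47.2); none of the 6 passed the test.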

How the data were processed

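The authors deposited 1 MACS2 peak list per library in mm10, and per the submitters' processing notes SAMtools 1.3.1, DiffBind 3.12.0, Bowtie2 2.4.5, Trim Galore 0.6.5 and MACS2 2.2.7.1 were used. Each deposited list gives a score (not used here), the fold enrichment (a ratio over background), −log10 p and −log10 q per peak and the summit position. The sources used here do not give settings, read shifting, duplicate removal or masked regions. Peaks were merged at 1 bp and set against the ends of 21883 protein-coding genes in RefSeq tables of GRCm38.p6, the assembly of mm10. The deposited values gave a whole-number pileup at 100.0% of summits (tolerance 0.001), which was used as depth only.

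Ranks by −log10 q among the 8840 regions called in all libraries and lying on chromosomes were compared with limma 3.58.1 (R 4.3.3), trend on, Benjamini-Hochberg over all regions, threshold 0.05, on 2 pair means a group. The pairs are replicates 1 and 3, and 2 and 4. Single values per library used exact permutation or sign-flip tests. Python 3.11.15 did the rest. The limma script was tested on simulated data in which 200 regions of low rank were raised by 20, 40 or 60 percentile points. At the spread of these data it recovered 0 of the 200 at each shift. With the spread cut to 0.25 of that it recovered 150, 196 and 200. A count of 0 calls therefore says little about single members. Members, gene lists and tests were chosen with earlier results of these data known, and 3 list patterns were corrected after the files were read. Named members were 12 microglial genes (1 is not reported here), the 10 strongest, 5 weakest, 5 longest, 5 with starts on both strands and 3 per direction with the smallest limma p, plus up to 3 genes per list. Further genes at 3′ ends and histone genes were named after their values were seen. Alternatives were another strength measure, normal scores, a 500 bp window, a −log10 q minimum of 5 and left-out libraries.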

Additional observations from a re-analysis of the deposited data

Results flagged for a closer look

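In 10 of the 92 groups of 4 libraries examined, 1 library lay far from the other 3 by Dixon's criterion; chance flags about 1 in 20 groups. The share of summits within 100 bp of the start was 57.9% in FGR 1, above 56.6% to 56.8% in the other FGR libraries. Most of the others were members at the very top or bottom of the ranking, where the spread is narrow. Rank percentiles that stood apart at the top were 99.5 at Hsd17b12 in Ctrl 1, 98.6 at Pcx in FGR 4, 98.8 in Ctrl 3 and 99.2 in FGR 2 at Drc3 and Tom1l2, and 98.8 at Derl2 and Mis12 in FGR 2. At the bottom, Ctrl 2 stood apart with 4.29 at Zcchc3 and 6820408C15Rik and 11.6 at Enkd1 and 4933405L10Rik. Rcan3 had 32.7 in FGR 2, against 0.2 to 4.6 in the other FGR libraries. Pip5k1c had 86.1 in Ctrl 3, below the other Ctrl libraries and above every FGR library.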

How the results depend on the processing

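No alternative run reversed the members' rank between groups, the gene-end against distal difference or the start against 3′ end difference. The count among the strongest peaks and the members with the smallest limma p also kept their direction. Irf8, Sall1 and some other named members changed sign in at least 1 setting, as did the medians of some gene lists. Alternative values were tallied for the members' rank between groups, the gene-end against distal difference and the start against 3′ end difference. Of these values, 31 stayed past the threshold and 9 fell short of it. All 31 took libraries singly, and every run with pairs averaged fell short. The rank of the members in FGR against Ctrl was -2.48 points with pairs averaged, -2.01 without Ctrl 1 and 2 and -2.34 with replicates 3 and 4 only (exact permutation p = 0.333, 0.0667 and 0.333). Leaving out 1 library at a time gave -2.92 to -2.25 points, with an exact p of 0.0571 whenever an FGR library was left out. The count of members among the strongest peaks differed by -535 with pairs averaged and by -645 to -396 with 1 library left out. It differed by -343 without Ctrl 1 and 2 and by -399 with replicates 3 and 4 only. In all these runs the members had to be called in Ctrl 2, so the count is a description. The regions behind the rank and the other differences likewise had to be called in every library, also in those left out. The gene-end against distal difference of 5.32 points and the start against 3′ end difference of 10.9 points had an exact p of 0.125 with pairs averaged. The p-values with pairs averaged, without Ctrl 1 and 2 and with replicates 3 and 4 only are the smallest such few samples can give. For the rank with an FGR library left out, the groups still did not overlap. There, another assignment of the libraries also gave a difference at least as large as the observed. limma called 0 members in each direction in all its settings; with normal scores 5 other regions were called higher. The number of members was 7319 without Ctrl 1 and 2, 7728 with replicates 3 and 4 only, 4485 at a −log10 q of at least 5 and 5818 with a 500 bp window. With the replicate number as a block, limma called 0 members higher and 0 lower. Same-numbered Ctrl and FGR libraries did not deviate together over the 8840 regions (correlations of 0.00144, -0.0138, -0.0110 and -0.00827 for replicates 1 to 4). These values give no sign that the numbers pair samples. They cannot exclude it, since the Ctrl deviations may also hold the other peak shape of Ctrl 1 and 2. With a median pileup of 27 at members, Ctrl 2 was the shallowest there, and 7007 regions met the rule without it.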
